A study of Homo sapiens with 12 samples.

Results

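The 35 genes described here encode aminoacyl-tRNA synthetases, 19 of the cytosol and 16 of mitochondria. They were found by their gene symbols among the 57879 Ensembl gene rows of each library. All 35 were found, and all 35 passed the filter on low values. RNA was sequenced from A549, an established human lung adenocarcinoma cell line, in 4 stable lentiviral lines. The TIF1γ line carries an expression construct for TIF1γ, the product of TRIM33, and the vector line carries its empty counterpart. The sh-TAF15 line expresses a short hairpin RNA against TAF15, and the sh-NC line carries the control vector for it. The labels give vector and sh-NC the genotype WT. Of the 12 samples labelled, 8 are analysed here and 4 are not. They are all 3 of vector, numbers 2 and 3 of both the TIF1γ line and the sh-TAF15 line, and number 2 of sh-NC. The design calls the replicates biological, but each construct stands for a single stable line as far as the labels say, so the p-values measure the spread between samples of these lines.

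Aminoacyl-tRNA synthetases join each amino acid to its tRNA and so supply the ribosome with its substrates. Cytosolic and mitochondrial protein synthesis mostly use separate enzymes, both encoded in the nucleus. Lysine and glycine are exceptions, because KARS1 and GARS1 each give rise to both forms. There is no mitochondrial glutaminyl-tRNA synthetase either: EARS2 loads glutamate onto that tRNA and an amidotransferase converts it. Several cytosolic enzymes sit in the multi-synthetase complex, held together by the scaffold proteins AIMP1, AIMP2 and EEF1E1. When amino acids run short or the endoplasmic reticulum is stressed, phosphorylation of eIF2 raises the translation of ATF4, a transcription factor known to induce many of the cytosolic synthetase genes together with genes of amino acid synthesis and import. ATF4 with its C/EBP partners binds a composite element whose core, TGATGNAA, was searched for in the promoters.

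The promoter windows run from 250 bases before to 50 bases after a transcription start, from RefSeq on build GRCh38.p14, and 30 of the 35 genes had one. The files themselves were made on GRCh37, so these positions belong to the RefSeq table alone. On either strand, TGATGNAA was present in 7 of the 16 cytosolic genes with a window (43.8%) and in 1 of the 14 mitochondrial genes (7.14%), against 4.46% of all 27305 genes in the table. The 7 cytosolic genes all belong to the 12 cytosolic synthetases listed as known ATF4 targets, 10 of which had a window, and none of the 6 other cytosolic genes with a window held a match. All 8 matches are shown so that their sequence and position can be compared. Each line gives 28 bases on the coding strand, 5′ to 3′, with the match in capitals, read as TTNCATCA where the motif lies on the opposite strand.
AARS1: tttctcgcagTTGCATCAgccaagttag
CARS1: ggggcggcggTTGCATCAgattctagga
GARS1: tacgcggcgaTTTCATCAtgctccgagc
IARS1: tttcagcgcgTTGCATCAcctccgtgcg
MARS1: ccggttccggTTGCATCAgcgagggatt
NARS1: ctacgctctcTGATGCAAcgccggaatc
TARS1: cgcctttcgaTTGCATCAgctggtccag
YARS2: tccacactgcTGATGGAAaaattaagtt
The capitals lie at chr16:70289686-70289693 for AARS1, chr11:3057418-3057425 for CARS1, chr7:30594845-30594852 for GARS1 and chr9:92293703-92293710 for IARS1. They lie at chr12:57488064-57488071 for MARS1, chr18:57621815-57621822 for NARS1, chr5:33440967-33440974 for TARS1 and chr12:32756087-32756094 for the mitochondrial YARS2. AARS1, CARS1, IARS1, NARS1 and YARS2 are on the minus strand and GARS1, MARS1 and TARS1 on the plus strand. In 6 of the 7 cytosolic genes the match begins between 33 bases before and 14 bases after the start, whereas in AARS1 it begins 187 bases before it and in YARS2 197 bases before it. TARS1 and NARS1 hold it just inside the transcribed part, 2 and 14 bases after the start.

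The values are FPKM, fragments scaled to the length of the transcript and the size of the library, so that levels can be compared between genes. Read counts do not come with them. The size of the smallest steps between weakly expressed genes put the libraries at an estimated 14250000 to 18570000 fragments, and the least covered member, WARS2, at 70.2 estimated fragments in its lowest library. TRIM33 was at 2.23, 2.10 and 1.27 FPKM in vector and at 8.03 and 6.14 in TIF1γ, with 3.46 in sh-NC and 2.80 and 2.73 in sh-TAF15. Both TIF1γ libraries lay above all others. No row was matched to the symbol TAF15, so its level is not given. The 6 epithelial markers summed to between 2430.2 and 13499.2 FPKM per library. KRT8 and KRT18 were listed at 0 in both TIF1γ libraries and were not tested. In the other libraries KRT8 ran from 1397 to 5747 FPKM and KRT18 from 1129.5 to 5721. The keratin KRT19 was at 26.9, 30.8 and 41.6 in vector and 61.5 and 61.7 in TIF1γ, but at 0.243 in sh-NC and 0.775 and 0.603 in sh-TAF15. Fibroblast, endothelial and leukocyte markers reached 1 FPKM in no library except for COL1A1 and CD14, with CD3E and DCN at 0 in every library.

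The cytosolic enzymes were expressed at higher levels than the mitochondrial ones. In vector, the mean FPKM of the 19 cytosolic genes ran from 9.83 for LARS1 to 173 for QARS1, the glutaminyl enzyme, with a median of 52.7. The 16 mitochondrial genes ran from 2.54 for AARS2 to 38.8 for SARS2, with a median of 17.4. A vector mean above 40 FPKM was reached by 12 cytosolic genes and by 0 mitochondrial genes, and 1 cytosolic and 7 mitochondrial genes lay under 10 FPKM. Within the multi-synthetase complex the levels spanned the whole cytosolic range, since LARS1 and QARS1 are both members of it. The summed FPKM of the 19 cytosolic genes was lowest in vector replicate 2, at 970.6, and highest in TIF1γ replicate 3, at 1306. That of the 16 mitochondrial genes ran from 248 in TIF1γ replicate 3 to 357 in sh-TAF15 replicate 3. The ratio of these sums was lowest, 3.03, in sh-TAF15 replicate 3 and highest, 5.26, in TIF1γ replicate 3.

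**Figure D1:**
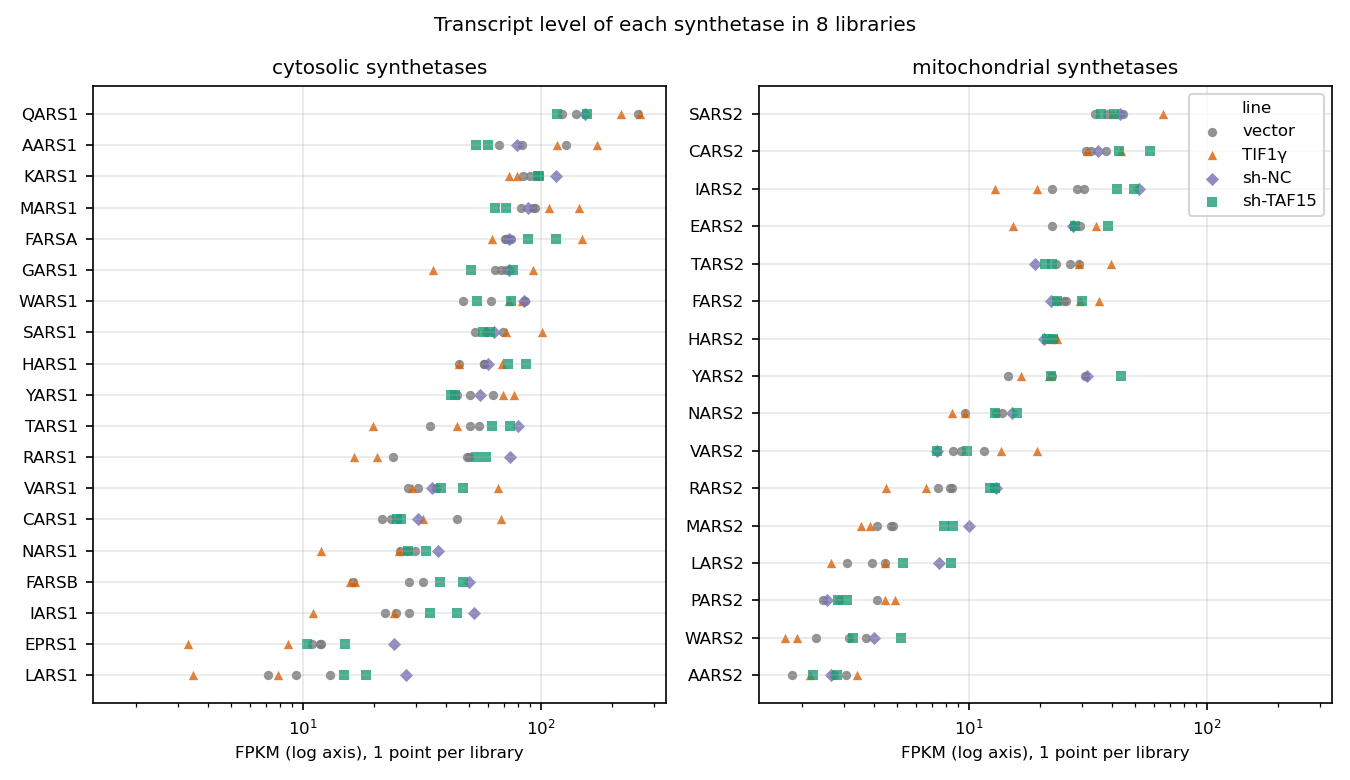
FPKM of each synthetase gene on a log axis, 1 point per library, with colours and shapes for the 4 lines and the cytosolic and mitochondrial genes in separate panels. QARS1 (vector mean 173) heads the cytosolic panel and SARS2 (vector mean 38.8) the mitochondrial one.

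Among the high cytosolic genes, QARS1 was at 141, 122 and 257 FPKM in vector, 261 and 218 in TIF1γ, 153 in sh-NC and 156 and 117 in sh-TAF15. KARS1, the lysyl enzyme, varied least of the cytosolic genes, with 98.7, 90.1 and 84.5 in vector, 79.3 and 73.3 in TIF1γ, 116 in sh-NC and 97.0 and 98.1 in sh-TAF15. The highest library held 1.59 times the lowest for KARS1, against 7.83 times for LARS1. HARS2, the mitochondrial histidyl enzyme, varied least of all 35, with 22.8, 22.2 and 22.8 in vector, 21.1 and 23.5 in TIF1γ, 20.7 in sh-NC and 21.4 and 22.5 in sh-TAF15, a ratio of 1.14. IARS2 varied most among the mitochondrial genes, with a ratio of 4.02.

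For 14 amino acids a cytosolic and a mitochondrial gene can be set side by side. The cytosolic gene had the higher FPKM in all 8 libraries in 10 of the 14 pairs, the order changed between libraries in 4, and in 0 pairs was the mitochondrial gene higher throughout. The median log2 ratio of cytosolic to mitochondrial FPKM ran from −0.47 for CARS1 over CARS2, the cysteinyl enzymes, to 5.02 for AARS1 over AARS2, the alanyl enzymes. The pairs whose order changed were CARS, IARS, LARS and TARS. For the threonyl pair the log2 ratio spanned 3.09 units: TARS1 was at 19.8 FPKM and TARS2 at 39.6 in TIF1γ replicate 2, but TARS1 was at 80.1 and TARS2 at 18.9 in sh-NC. The isoleucyl pair stayed near equality, with a log2 ratio that spanned 0.69 units. IARS1 and IARS2 thus kept close to the same proportion in every library.

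**Figure D2:**
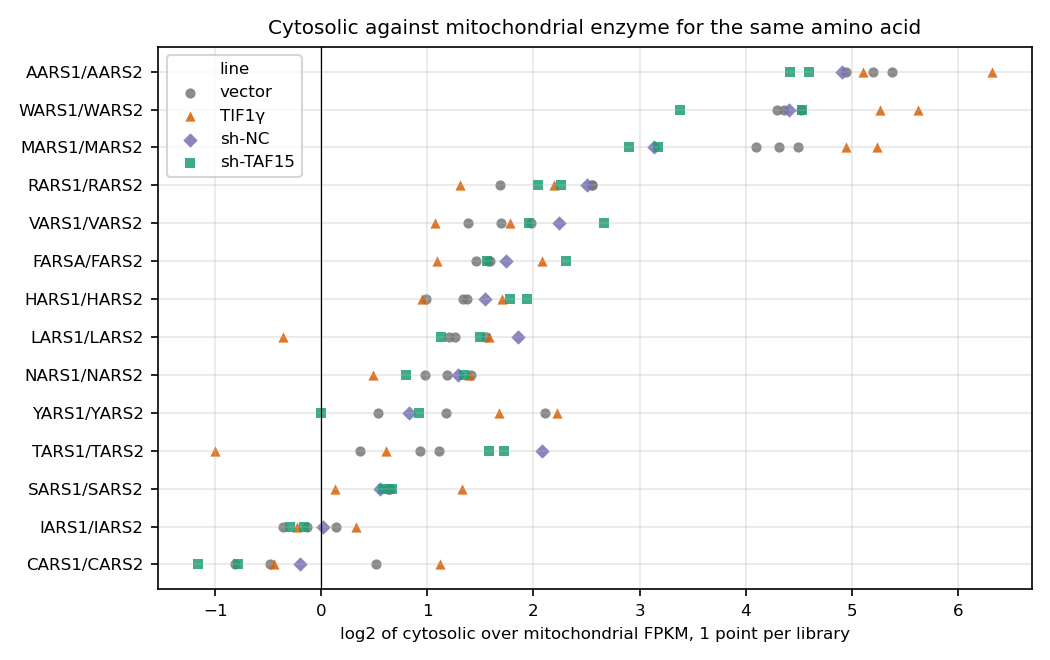
Log2 ratio of cytosolic to mitochondrial FPKM for the 14 amino acids with a gene of each kind, 1 point per library, with the line at 0 marking equal levels. The alanyl pair has a median of 5.02, and 4 pairs (LARS, TARS, IARS and CARS) have points on both sides of 0.

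HARS1 and HARS2 are neighbours that are read in opposite directions from starts 85 bases apart. The 84 bases between the starts, shown because they are the upstream sequence of both genes, lie at chr5:140691371-140691454 of GRCh38.p14 and are 59.5% G or C (plus strand, the strand of HARS2).
HARS1 to HARS2: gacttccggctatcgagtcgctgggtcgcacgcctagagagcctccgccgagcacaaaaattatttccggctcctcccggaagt
HARS1, the cytosolic enzyme, was at 57.7, 57.5 and 45.3 FPKM in vector, 69.0 and 45.5 in TIF1γ, 60.2 in sh-NC and 73.0 and 86.5 in sh-TAF15. Its log2 ratio to HARS2 spanned 0.99 units over the 8 libraries, so the genes on either side of this stretch did not keep a fixed proportion.

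The first comparison asks whether synthetase genes differ when TIF1γ is overexpressed. Of the 35 genes, 0 were called by limma at a Benjamini-Hochberg adjusted p under 0.05, against 0.0216% of the 13907 genes tested. At an unadjusted p under 0.05, 1 gene was higher and 7 were lower, against 8.55% and 11.4% of all genes. The median log2 fold change was −0.01 for the cytosolic and −0.13 for the mitochondrial genes, against 0.02 for all genes. All fold changes are on the log2(FPKM + 1) scale after scaling of the libraries, which draws those of weakly expressed genes toward 0. The lowest p belonged to RARS1, the arginyl enzyme of the complex, at 49.1, 50.1 and 24.01 FPKM in vector and 16.5 and 20.6 in TIF1γ (log2 fold change −1.12, SE 0.30, limma adjusted p = 0.2). Both TIF1γ libraries lay below all 3 vector libraries, and vector replicate 3 lay close to them. Without vector replicate 3 the log2 fold change was −1.44 (limma adjusted p = 0.0418), and RARS1 was then called.

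EPRS1, the bifunctional glutamyl-prolyl enzyme, was at 12.0, 11.9 and 10.9 FPKM in vector and 3.32 and 8.65 in TIF1γ (log2 fold change −1.03, SE 0.34, limma adjusted p = 0.2). LARS1, the leucyl enzyme and a leucine sensor for mTORC1, was at 13.0, 9.36 and 7.13 in vector and 3.47 and 7.88 in TIF1γ (−0.82, SE 0.34, adjusted p = 0.226), so its groups overlapped. IARS2, the mitochondrial isoleucyl enzyme, was at 30.7, 28.5 and 22.5 in vector and 12.9 and 19.3 in TIF1γ (−0.81, SE 0.26, adjusted p = 0.2). In EPRS1, LARS1 and IARS2, TIF1γ replicate 2 was the lower of the TIF1γ libraries. Without it the log2 fold changes were −0.37 for EPRS1, −0.24 for LARS1 and −0.45 for IARS2, and without TIF1γ replicate 3 they were −1.69, −1.39 and −1.17. RARS2, the mitochondrial arginyl enzyme, was at 8.37, 8.51 and 7.47 in vector and 6.65 and 4.49 in TIF1γ (−0.57, SE 0.25, adjusted p = 0.234). VARS2, the mitochondrial valyl enzyme, was at 9.30, 8.56 and 11.7 in vector and 19.3 and 13.7 in TIF1γ (0.61, SE 0.26, adjusted p = 0.235). Neither passed the test, although for both all TIF1γ libraries lay on one side of all vector libraries.

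Both TIF1γ libraries lay below every vector library, after scaling, for 5 of the 19 cytosolic genes (EPRS1, FARSB, KARS1, NARS1 and RARS1) and for 5 of the 16 mitochondrial genes (IARS2, MARS2, NARS2, RARS2 and WARS2). The share over all genes was 19.3%. They lay above every vector library for 0 cytosolic genes and for 3 mitochondrial genes (FARS2, TARS2 and VARS2), against 17.3% of all genes. The phenylalanyl enzyme of the cytosol is built from a catalytic subunit, FARSA, and a partner subunit, FARSB, and the levels of their mRNAs stood apart. FARSA was at 74.8, 70.4 and 71.2 FPKM in vector, 149 and 62.3 in TIF1γ, 73.9 in sh-NC and 116 and 88.2 in sh-TAF15. FARSB was at 31.9, 27.9 and 16.3 in vector, 16.7 and 15.8 in TIF1γ, 50.1 in sh-NC and 46.9 and 37.8 in sh-TAF15. The subunit mRNAs were thus furthest apart in TIF1γ replicate 2, which also had the highest FARSA level of all 8 libraries. Their transcripts differ in base composition, with 60.3% G or C for FARSA and 41.6% for FARSB. For TIF1γ minus vector the log2 fold changes were 0.33 for FARSA and −0.64 for FARSB. With a trend on GC content and transcript length removed from each library they were −0.10 and −0.21.

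The second comparison asks whether synthetase genes differ when TAF15 is silenced. It rests on 1 sh-NC library, whose spread is taken from the other groups. Of the 35 genes, 0 were called by limma, against 0.0575% of all genes, and 0 had an unadjusted p under 0.05 in either direction, against 3.57% higher and 2.07% lower among all genes. The cytosolic genes had a median log2 fold change of −0.32, against −0.04 for the mitochondrial and −0.00 for all genes. Of the 19 cytosolic genes, 16 had a value below 0, against 50.3% of all genes, and the same 16 lay below the sh-NC library in both sh-TAF15 libraries after scaling, against 37.8% of all genes. The exceptions were FARSA, HARS1 and VARS1, which lay above it in both, against 35.3% of all genes. Among the 16 mitochondrial genes, 5 lay below sh-NC in both libraries and 5 above. All 12 known ATF4 targets among the cytosolic enzymes had a value below 0, with a median of −0.43, and the same count was found without scaling, with equal sums and with the base composition trend removed. With 1 sh-NC library, a deviation of that library and a difference between the lines cannot be told apart.

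**Figure D3:**
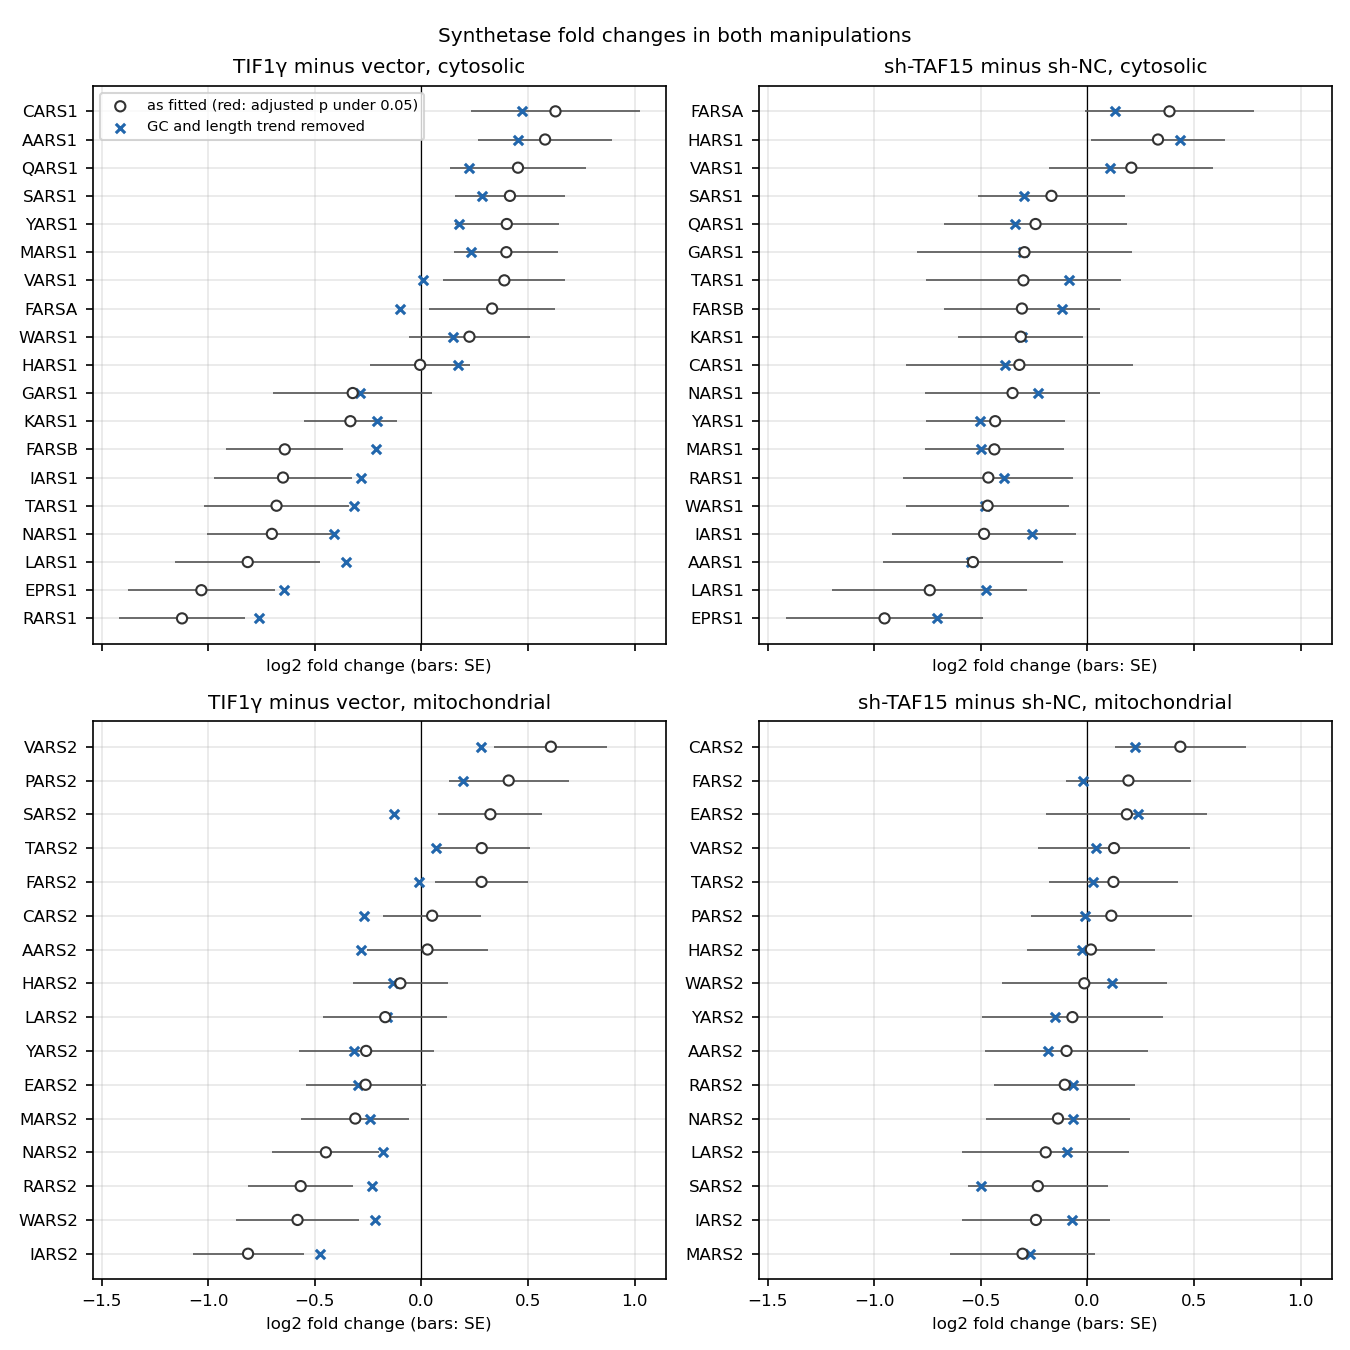
Fitted log2 fold change of each member for TIF1γ minus vector and for sh-TAF15 minus sh-NC, with bars for the SE and crosses for the fit with the GC and length trend removed. No member is called in either comparison, and 16 of the 19 cytosolic genes lie below 0 in the sh-TAF15 panel.

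The lowest p in this comparison belonged to EPRS1, with 24.2 FPKM in sh-NC and 15.1 and 10.4 in the silenced line (log2 fold change −0.95, SE 0.46, limma adjusted p = 0.888). LARS1 was at 18.4 and 14.9 against 27.2 (−0.74, SE 0.46, adjusted p = 0.941). MARS1, the methionyl enzyme of the complex, was at 64.3 and 71.2 against 88.0 (−0.44, SE 0.33, adjusted p = 0.952). All 3 had both sh-TAF15 libraries below sh-NC. Among the mitochondrial genes, CARS2 was at 42.9 and 57.9 against 34.98 (0.44, SE 0.31, adjusted p = 0.952), above it in both libraries. MARS2 was at 8.62 and 7.90 against 10.0 (−0.30, SE 0.34, adjusted p = 0.959). SARS2, the seryl enzyme, was at 36.0 and 40.8 against 43.3 (−0.23, SE 0.33, adjusted p = 0.962).

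The largest set of called members separated the sh-NC and sh-TAF15 lines from the vector and TIF1γ lines. The contrast took the mean of the sh-NC and sh-TAF15 group means minus the mean of the vector and TIF1γ group means. The kind of construct cannot be told apart here from anything else that differed between these 2 sets of lines. By limma, 14 of the 35 members were called, 10 higher and 4 lower in the hairpin lines. Over all genes 41.6% were called, 20.4% higher and 21.1% lower, so the members' count is to be read against those shares. With the libraries scaled to equal sums, 11 members were called higher and 0 lower, against 26.5% and 14.7% of all genes, so that all 4 lower calls ended. There AARS1 had an adjusted p of 0.102, MARS1 0.179, TARS2 0.069 and VARS2 0.116 by limma. Markers of cell type also differed in this contrast. All 4 epithelial markers tested were called lower by limma, KRT19 by the most (log2 fold change −5.06, SE 0.22, adjusted p = 6.05e-09), with CDH1 at −1.37, EPCAM at −1.01 and KRT7 at −0.64. KRT7 stood at 1516.1 to 1922.3 FPKM in the hairpin libraries, overlapping the 1763.5 to 1992.4 in vector. CDH1 was at 0.857 in the lone sh-NC library, but both sh-TAF15 libraries lay within the vector range of 4.27 to 10.4. EPCAM was at 0.436 in sh-NC and 0.555 in sh-TAF15 replicate 2. In sh-TAF15 replicate 3 it was at 1.87, above vector replicate 3 (1.803) and TIF1γ replicate 3 (1.251). The calls for CDH1 and EPCAM therefore do not show a lower level in every hairpin library. KRT8 and KRT18, at 0 in TIF1γ, were not tested. Summed over all 6, epithelial markers stood at 4232.7 to 6324.4 in the hairpin libraries and 2430.2 to 13499 in the others. CD14, the leukocyte marker tested, was called lower (−1.83), and COL1A1, the fibroblast marker tested, was called higher (1.25). Summed fibroblast markers stood at 3.00 to 4.15 FPKM in the hairpin libraries and 0.403 to 1.49 in the others, with DCN at 0 throughout. Summed leukocyte markers stood at 4.30 to 10.2 and 11.7 to 35.1, with CD3E at 0 throughout. The part of these differences in the members' results was not tested. Both compartments contributed, with 6 higher and 2 lower of the 19 cytosolic genes and 4 higher and 2 lower of the 16 mitochondrial genes. After scaling, the 3 hairpin libraries lay above all 5 others for IARS1, TARS1, IARS2, MARS2 and RARS2, against 16.3% of all genes, and below all 5 for MARS1, HARS2 and TARS2, against 17.7%.

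**Figure D4:**
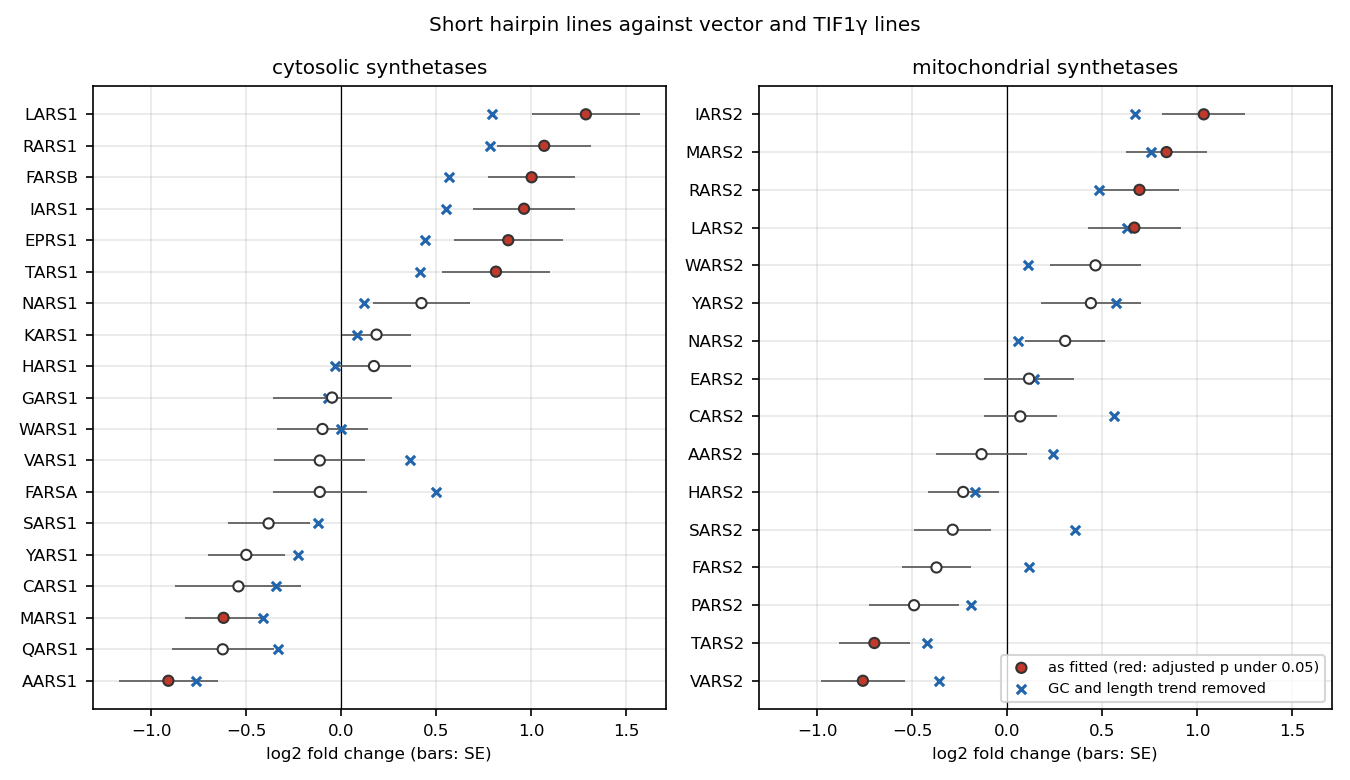
Fitted log2 fold change of each member between the hairpin lines (sh-NC and sh-TAF15) and the vector and TIF1γ lines, with bars for the SE, filled red where the limma adjusted p is under 0.05 and with crosses for the fit with the GC and length trend removed. LARS1 (1.29) and IARS2 (1.04) lie furthest to the right in their panels, and AARS1 (−0.91) and VARS2 (−0.76) furthest to the left.

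Of the 7 synthetases of the multi-synthetase complex, 4 were called higher and 1 lower, against 20.4% and 21.1% of all genes. With the GC and length trend removed 2 were called higher and 0 lower, against 16.8% and 14.4% of all genes. With equal sums the counts were 4 and 0, against 26.5% and 14.7%. LARS1 (ENSG00000133706) was at 27.2 FPKM in sh-NC and 18.4 and 14.9 in sh-TAF15, and between 3.47 and 13.0 in the other 5 libraries. It rose by 1.29 on the log2 scale in the hairpin lines (SE 0.28, limma adjusted p = 0.0036). RARS1 (ENSG00000113643) was at 74.3 in sh-NC and 53.3 and 58.8 in sh-TAF15, against 16.5 to 50.1 elsewhere (log2 fold change 1.07, SE 0.25, limma adjusted p = 0.00459). The 3 hairpin libraries were the highest for both in the deposited values, but their groups overlapped after scaling. IARS1 (ENSG00000196305), the cytosolic isoleucyl enzyme, was at 52.6 in sh-NC and 44.3 and 34.2 in sh-TAF15. It was at 27.9, 22.2 and 24.8 in vector and 11.02 and 24.2 in TIF1γ (0.96, SE 0.27, adjusted p = 0.0129). EPRS1 (ENSG00000136628) also rose (0.88, SE 0.29, limma adjusted p = 0.0265), although sh-TAF15 replicate 3, at 10.4, overlapped the vector libraries. MARS1 (ENSG00000166986) fell by 0.62 on the log2 scale (SE 0.20, limma adjusted p = 0.0271), from 82.4, 94.3 and 92.9 in vector and 109 and 145 in TIF1γ to 88.0 in sh-NC and 64.3 and 71.2 in sh-TAF15. KARS1 and QARS1 were not called, with log2 fold changes of 0.19 and −0.62. Of the scaffold proteins, EEF1E1 was called higher (0.61, SE 0.23, limma adjusted p = 0.0465), at 53.4 in sh-NC and 56.1 in both sh-TAF15 libraries and between 24.3 and 53.9 elsewhere. AIMP1 (0.58) and AIMP2 (0.35) were not called. With the GC and length trend removed, AIMP2 was called (0.70, limma adjusted p = 0.00979) and EEF1E1 was not (adjusted p = 0.0934).

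Outside the complex, FARSB (ENSG00000116120) rose by 1.00 on the log2 scale (SE 0.23, limma adjusted p = 0.0041), while its partner FARSA had a value of −0.11 (adjusted p = 0.737). TARS1 (ENSG00000113407), the cytosolic threonyl enzyme, was at 80.1 FPKM in sh-NC and 62.2 and 73.9 in sh-TAF15. It was at 50.4, 54.99 and 34.3 in vector and 19.8 and 44.6 in TIF1γ (0.82, SE 0.28, limma adjusted p = 0.0368), so the 3 hairpin libraries were the highest. AARS1 (ENSG00000090861) fell by 0.91 on the log2 scale (SE 0.26, limma adjusted p = 0.0145). Its values were 83.7, 67.0 and 128 in vector, 117 and 173 in TIF1γ, 79.1 in sh-NC and 59.8 and 53.7 in sh-TAF15. The sh-TAF15 libraries were the lowest for AARS1, and sh-NC lay within the range of vector.

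Among the mitochondrial enzymes, IARS2 (ENSG00000067704) was at 51.9 FPKM in sh-NC and 49.7 and 42.1 in sh-TAF15, against 12.9 to 30.7 elsewhere (log2 fold change 1.04, SE 0.22, limma adjusted p = 0.00253). MARS2 (ENSG00000247626), the mitochondrial methionyl enzyme, was at 10.0 in sh-NC and 8.62 and 7.90 in sh-TAF15, against 3.53 to 4.81 elsewhere (0.84, SE 0.21, adjusted p = 0.00721). The hairpin libraries lay clear of the others for both genes, and MARS2 moved against its cytosolic counterpart MARS1. RARS2 (ENSG00000146282) was at 13.1 in sh-NC and 13.0 and 12.3 in sh-TAF15, against 4.49 to 8.51 elsewhere (0.70, SE 0.21, adjusted p = 0.016). LARS2 (ENSG00000011376), the mitochondrial leucyl enzyme, was at 7.50 in sh-NC and 8.45 and 5.28 in sh-TAF15, against 2.64 to 4.47 elsewhere (0.67, SE 0.24, adjusted p = 0.0415). For arginine, leucine and isoleucine the cytosolic and the mitochondrial gene were thus both called higher. TARS2 (ENSG00000143374) fell by 0.70 on the log2 scale (SE 0.19, limma adjusted p = 0.00997), from 23.4, 28.9 and 26.7 in vector and 39.6 and 29.2 in TIF1γ to 18.9 in sh-NC and 20.9 and 22.4 in sh-TAF15. VARS2 (ENSG00000137411) fell by 0.76 (SE 0.22, limma adjusted p = 0.0152), with 7.38 in sh-NC and 9.80 and 7.38 in sh-TAF15. The threonyl pair therefore moved in opposite directions, TARS1 higher and TARS2 lower.

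Members low in G and C took opposite signs for TIF1γ and in the hairpin lines. The TIF1γ libraries enter both comparisons, with opposite signs, so this opposition is partly built in and the comparisons are not independent. The G and C content of the longest annotated transcript ran from 41.4% (RARS1) to 62.6% (VARS1) over the members. Across all 35, Spearman's rho between this content and the log2 fold change was 0.841 for TIF1γ minus vector and −0.805 for the hairpin lines, against 0.789 and −0.592 over 11689 protein-coding genes. It was 0.469 for sh-TAF15 minus sh-NC and −0.749 for sh-NC minus vector. These are descriptions across genes, which share libraries and are not replicates. Of the 11 members under 45% GC, 11 had a value below 0 for TIF1γ (median −0.68), against 48.4% of all genes. The same 11 had a value above 0 in the hairpin lines (median 0.88), against 50.7% of all genes. Of them 8 were called higher, against 20.4% of all genes. The share called among all genes of like GC content was not counted. These bounds were chosen after the values were seen. Among the 11 are RARS1, LARS1, FARSB, IARS1, IARS2 and RARS2. Of the 9 members above 55% GC, 9 had a value above 0 for TIF1γ, against 51.3% of all genes, or 7 with the libraries scaled to equal sums. In the hairpin lines 8 of these 9 had a value below 0, or 5 with equal sums, and for sh-TAF15 minus sh-NC 5 lay above and 4 below. Between libraries of one group it was present in some pairs and not in others. The coefficient was 0.522 over the members for TIF1γ replicate 2 minus replicate 3, and 0.533 over the protein-coding genes. For vector replicate 3 minus the mean of vector replicates 1 and 2 it was 0.597 over the members and 0.389 over the protein-coding genes. For vector replicate 2 minus replicate 1 it was −0.0829 and 0.101 in the same order. For sh-TAF15 replicate 2 minus replicate 3 it was −0.0826 and −0.305.

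**Figure D5:**
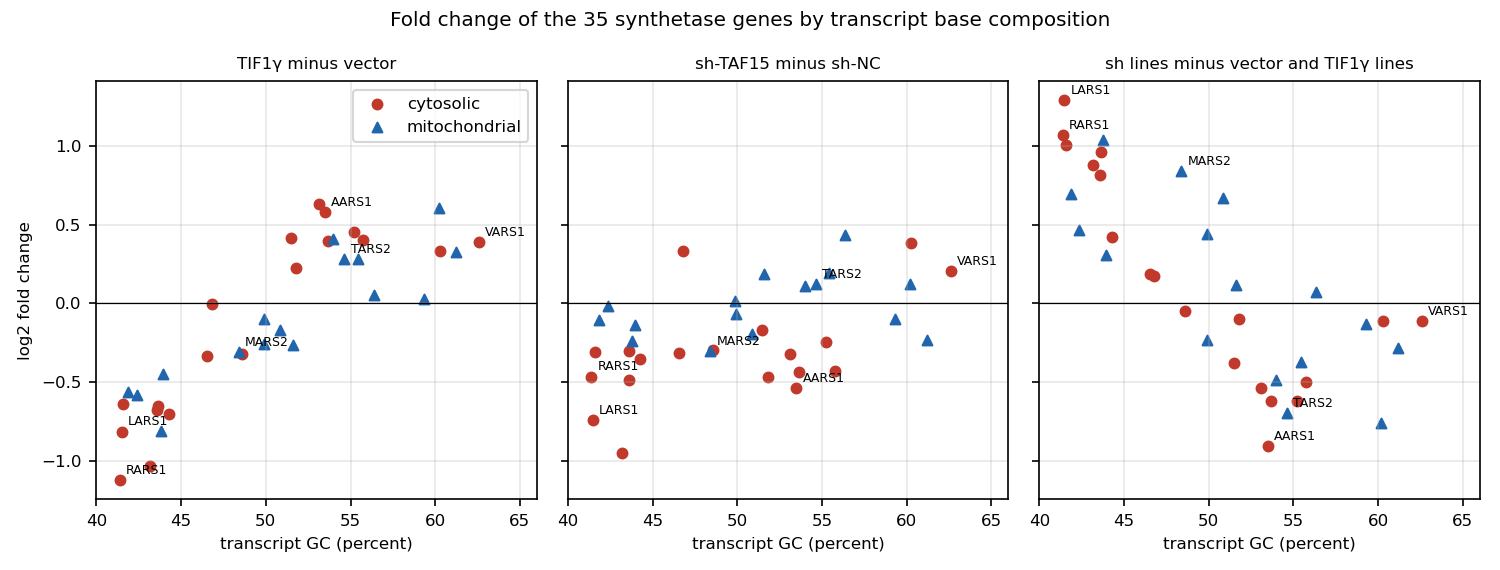
Fitted log2 fold change of the 35 members against the GC percent of the longest transcript, with cytosolic and mitochondrial genes marked apart. The panels show TIF1γ against vector, the silenced TAF15 line against its sh-NC control, and the hairpin lines against the vector and TIF1γ lines. Points rise to the right for TIF1γ (rho 0.841) and for the silenced TAF15 line (rho 0.469). They fall to the right for the hairpin lines (rho −0.805).

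With a smooth trend on GC content and length removed from each library, 5 members were called higher and 2 lower between the hairpin lines and the others, against 16.8% and 14.4% of all genes in that fit. Of these 7, 6 were among the 14 above. LARS1 kept a log2 fold change of 0.79 (limma adjusted p = 0.0245), RARS1 0.78 (0.0166), IARS2 0.67 (0.00988) and MARS2 0.76 (0.00488). AARS1 kept −0.76 (limma adjusted p = 0.038) and TARS2 −0.42 (0.0434), and CARS2 was called in addition (0.56, limma adjusted p = 0.0138). FARSB (adjusted p = 0.0583), IARS1 (0.0738), EPRS1 (0.159), TARS1 (0.24), MARS1 (0.0984), LARS2 (0.0612, with its log2 fold change at 0.63 against 0.67 before), RARS2 (0.0798) and VARS2 (0.0893) were no longer called by limma. The members under 45% GC then had a median of −0.32 for TIF1γ and 0.49 in the hairpin lines. IARS2, LARS1, MARS2 and RARS1 were called in all 16 alternatives run for them. None of these left out the lone sh-NC library, which was the highest of all libraries for each of these genes, so its weight was not tested.

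Leaving out single libraries ended other calls in the contrast of hairpin and other lines. Without sh-TAF15 replicate 2, EPRS1, MARS1, TARS1, LARS2 and RARS2 were not called, and without sh-TAF15 replicate 3, MARS1, TARS1 and VARS2 were not. Without TIF1γ replicate 3, AARS1, MARS1 and LARS2 were not called, and without TIF1γ replicate 2, EPRS1 and TARS1 were not, with log2 fold changes of 0.53 and 0.46. Without vector replicate 3, EPRS1, TARS1 and LARS2 were not called, and without vector replicate 1, LARS2 was not.

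Between the control lines themselves, sh-NC minus vector, 0 members were called by limma, against 11% of all genes, 3.78% higher and 7.21% lower. At an unadjusted p under 0.05, 5 were higher and 1 lower, against 12.4% and 15.6% of all genes. The medians were 0.00 for the cytosolic and −0.04 for the mitochondrial genes. LARS1, at 27.2 FPKM against 13.0, 9.36 and 7.13, had the lowest adjusted p of the members (log2 fold change 1.25, SE 0.43, limma adjusted p = 0.0805). It was called without scaling (limma adjusted p = 0.0388), without vector replicate 1 (adjusted p = 0.0458), without TIF1γ replicate 2 (0.0452) and without TIF1γ replicate 3 (0.043). FARSB had a value of 0.84 (SE 0.35), IARS1 0.88 (SE 0.41), MARS2 0.84 (SE 0.32) and IARS2 0.75 (SE 0.33). TARS2 had −0.62 (SE 0.28). No scaling and equal sums moved the median of all genes in this comparison from 0.01 to 0.16 and 0.18, and that of the hairpin contrast from 0.01 to 0.15 and 0.22, which is about the size of the shifts in the members' medians.

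The effect of TIF1γ minus that of the TAF15 hairpin, each against its own control, was tested as an interaction. By limma 0 members were called, against 0.0431% of all genes, and 0 had an unadjusted p under 0.05, against 1.63% higher and 1.97% lower among all genes. The cytosolic genes with the lowest p were AARS1, YARS1 and MARS1. AARS1 had a difference of 1.12 (SE 0.52, limma adjusted p = 1), MARS1 0.83 (SE 0.41) and YARS1, the tyrosyl enzyme, 0.83 (SE 0.41). YARS1 was at 50.4, 44.5 and 63.2 FPKM in vector, 69.4 and 77.2 in TIF1γ, 55.6 in sh-NC and 41.8 and 43.7 in sh-TAF15. Both TIF1γ libraries were the highest and both sh-TAF15 libraries the lowest for YARS1. Among mitochondrial genes, SARS2 had 0.56 (SE 0.41), with 38.0, 34.1 and 44.3 in vector and 65.5 and 40.3 in TIF1γ. IARS2 had −0.57 (SE 0.44) and WARS2, the tryptophanyl enzyme, −0.57 (SE 0.48), with WARS2 at 3.13, 2.30 and 3.72 in vector, 1.69 and 1.91 in TIF1γ, 4.0 in sh-NC and 3.26 and 5.18 in sh-TAF15.

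ATF4 itself was at 249, 256 and 454 FPKM in vector, 397 and 593 in TIF1γ, 293 in sh-NC and 165 and 200 in sh-TAF15. It fell by 0.91 on the log2 scale in the hairpin lines (SE 0.27, limma adjusted p = 0.0173), but had an adjusted p of 0.263 with the GC and length trend removed. It was not called for TIF1γ (0.58, SE 0.32, adjusted p = 0.315) or for sh-TAF15 (−0.75, SE 0.43, adjusted p = 0.918). Nor was it called for sh-NC minus vector (−0.24, SE 0.41, limma adjusted p = 0.724), where sh-NC lay within the range of vector. Its 3 highest libraries were TIF1γ replicate 3, vector replicate 3 and TIF1γ replicate 2, and its 2 lowest were those of sh-TAF15. The same 3 libraries were the highest for 4 of the 12 known ATF4 targets (AARS1, CARS1, SARS1 and YARS1), for 1 of the 7 other cytosolic genes (QARS1) and for 2 of the 16 mitochondrial genes (PARS2 and VARS2), against 11.9% of all genes tested. The same 2 libraries were the lowest for AARS1, MARS1 and YARS1 alone among the members, against 3.86% of all genes. This ordering was looked at after the values were seen. AARS1, CARS1 and MARS1 also hold the promoter motif shown above, but so do GARS1, IARS1, NARS1 and TARS1, which shared neither its 3 highest nor its 2 lowest libraries. SARS1 has a window with no match, and YARS1 has no window in the table. CARS1 was at 23.4, 21.6 and 44.6 in vector, 32.1 and 68.3 in TIF1γ, 30.5 in sh-NC and 24.8 and 25.8 in sh-TAF15. IARS1, in contrast, was lowest, at 11.02, in TIF1γ replicate 2, a library high in ATF4.

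Of 28 genes of the ATF4 and amino acid response, 27 passed the filter. In the hairpin lines 13 of them were called lower and 1 higher by limma, against 21.1% and 20.4% of all genes. The lower calls numbered 8 with equal sums, against 14.7% of all genes, and 8 with the trend removed, against 14.4%. With no filter they numbered 9, for which the share over all genes is not given here. ASNS, asparagine synthetase, was at 51.7, 57.0 and 67.7 FPKM in vector, 34.8 and 131 in TIF1γ, 39.5 in sh-NC and 16.8 and 18.1 in sh-TAF15 (log2 fold change −1.38, SE 0.44, limma adjusted p = 0.0369). DDIT3, the stress factor CHOP, was at 11.7, 13.0 and 29.7 in vector, 18.5 and 64.4 in TIF1γ, 13.9 in sh-NC and 5.64 and 6.32 in sh-TAF15 (−1.45, SE 0.52, adjusted p = 0.0637). For both genes TIF1γ replicate 3 was the highest library and those of sh-TAF15 the lowest. For TIF1γ minus vector 0 of the 27 were called by limma, 22 lay above 0 (51.3% of all genes) with a median of 0.58, and without TIF1γ replicate 3 the median was 0.18 with 16 above 0. PYCR1 and PHGDH, of proline and serine synthesis, and CEBPB had values of 0.82, 0.90 and 0.74 (limma adjusted p = 0.2, 0.2 and 0.212). For sh-TAF15 minus sh-NC 0 were called and 22 lay below 0 (50.3% of all genes) with a median of −0.48. XPOT, the tRNA exporter, had the lowest p of them (−0.97, SE 0.49). For sh-NC minus vector 4 were called lower, against 7.21% of all genes, among them CEBPB (−1.95, SE 0.35, limma adjusted p = 0.00306), NUPR1 (−3.86, SE 0.66, 0.00928) and PYCR1 (−1.49, SE 0.32, 0.00943). The comparisons share control libraries, so these counts do not bear on each other independently.

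The lists around tRNA charging gave few calls outside the contrast of hairpin and other lines. Amino acid transporters (10 tested) had 0 called for TIF1γ and 0 for sh-TAF15 by limma, led by SLC1A5 (0.82, SE 0.31), SLC3A2 (0.54, SE 0.23) and SLC38A1 (−1.02, SE 0.42) for TIF1γ and by SLC7A1 (−0.99, SE 0.45), SLC38A1 (−1.15, SE 0.57) and SLC38A2 (−0.84, SE 0.48) for sh-TAF15. Without TIF1γ replicate 2 the value of SLC38A1 for TIF1γ was −0.17, and without TIF1γ replicate 3 it was −1.86. Between the hairpin and the other lines, 2 transporters were called higher and 3 lower, against 20.4% and 21.1% of all genes, which are also the shares for the lists that follow. The eIF2 kinases, eIF2B subunits and regulators (12 tested) had 0 called for TIF1γ and 0 for sh-TAF15. In sh-NC minus vector EIF2S1, the alpha subunit of eIF2 that the kinases phosphorylate, was called higher (1.22, SE 0.32, limma adjusted p = 0.0269). The values of the kinases EIF2AK4 (GCN2) and EIF2AK2 (PKR) there were 1.00 (SE 0.41) and 0.62 (SE 0.37). Of 24 genes of mitochondrial translation and tRNA processing, 9 were called higher and 3 lower in the hairpin lines and 0 for TIF1γ, where TRMT10C, a subunit of mitochondrial RNase P, had the lowest p (−1.19, SE 0.29, limma adjusted p = 0.2). Of 6 cytosolic elongation factors 1 was called lower in the hairpin lines, and EEF1A1 had a value of −0.62 (SE 0.25) for TIF1γ. WARS1, the tryptophanyl enzyme that interferon induces, was at 61.6, 47.4 and 85.7 FPKM in vector, 83.2 and 73.5 in TIF1γ, 84.8 in sh-NC and 75.2 and 54.0 in sh-TAF15, and was called in no comparison. Of the 9 interferon genes tested, 0 were called for TIF1γ, for sh-TAF15 or for sh-NC minus vector by limma, with ISG15 at 0.83 (SE 0.41) for sh-TAF15 and IRF1 at 0.67 (SE 0.25) for TIF1γ.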

How the data were processed

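Per the labels' protocols, RNA was enriched by poly(A) isolation or rRNA removal, without saying which, and read on a HiSeq. The submitters' processing notes name cutadapt 1.9.1, HISAT2 2.0.1, HTSeq 0.6.1 and GRCh37, and how FPKM were made from the reads is not given in the sources used here. The values deposited by the authors were taken as FPKM, on a linear scale, from their sums and range. Of 57879 rows, 52323 were matched to a symbol through a table of gene names or, failing that, GENCODE 29.

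The filter kept genes at 1 FPKM or more in 2 or more of the 8 libraries. A further 19 genes at 0 in a library beside 100 FPKM or more in another were set aside, of which 11 would have passed. Scale factors were trimmed means of log2 ratios, with 30% of the ratios and 5% of the abundances left out at both ends. Tests ran on log2(FPKM + 1). The 13907 genes were fitted with limma 3.58.1 in R 4.3.3 (lmFit, eBayes with trend and robust), with all 4 groups in 1 fit. The fit had 4 residual and 9.57 prior degrees of freedom. An adjusted p (Benjamini-Hochberg over all genes tested) under 0.05 was a call. The procedure was tested on simulated data. Medians and counts over lists carry no test.

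Values in every library are given for members that were called and for the 3 members of each compartment with the lowest unadjusted p in each comparison. Of other lists, the 3 genes with the lowest unadjusted p and a few fixed genes could be named. The members and lists were chosen with earlier results of these data known. GC content and length are those of the longest transcript in GENCODE 29, coding ones first. Library depth was estimated from the smallest steps of FPKM among weakly expressed genes with a single transcript. Alternatives changed the pseudocount, the filter, the scaling, the fit, the replicate block, GC content and length, and the libraries included.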

Additional observations from a re-analysis of the deposited data

How the results depend on the processing

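Of the medians and the counts of calls, 208 values under alternatives kept their size or side of the threshold, 31 medians moved by more than the SD between replicates (0.11 cytosolic, 0.09 mitochondrial), 7 counts were larger and 3 smaller. Of single named genes, 1661 values held, 64 calls were lost, 40 gained and 15 changed sign. The cause of these moves was not tested. The low number of libraries, and a lone sh-NC library that could not be left out, limit every comparison.

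Counts of called members: for the hairpin lines 14 as reported, 11 with equal sums (all higher), 8 with no filter, 7 with the GC and length trend removed, and 9 to 16 leaving out each library; for sh-NC minus vector 0 as reported, 1 with no scaling, 1 with the trend removed, 1 with the replicate block and 0 to 1 leaving out each library; for TIF1γ 0, and 0 to 1 leaving out each library.

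With equal sums the medians (cytosolic, mitochondrial) were −0.22 and −0.32 for TIF1γ, −0.42 and −0.13 for sh-TAF15, 0.20 and 0.14 for sh-NC minus vector, 0.20 and 0.34 for the hairpin lines, and −0.13 and −0.15 for the difference of effects. With no scaling they were 0.18 and 0.11 for sh-NC minus vector and 0.12 and 0.25 for the hairpin lines. With the trend removed they were 0.17 and 0.16, and 0.086 and 0.19. Leaving out each library, the cytosolic medians ran from −0.030 to 0.15 for sh-NC minus vector, −0.049 to 0.11 for the hairpin lines and −0.056 to 0.48 for the difference, where the highest value was without TIF1γ replicate 2. The mitochondrial medians ran from −0.17 to 0.12 for TIF1γ and −0.060 to 0.19 for the hairpin lines, turning sign without TIF1γ replicate 3.

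Deviations of same-numbered samples correlated at 0.172 and 0.121 between vector and TIF1γ, but at −0.373 and −0.237 between vector and sh-TAF15. In TIF1γ and in sh-TAF15 the deviations of the libraries mirror each other exactly, so these values cannot decide whether the numbers pair the samples. The main fit did not pair them. With the replicate block the cytosolic medians were −0.50 for sh-TAF15, 0.23 for sh-NC minus vector, 0.12 for the hairpin lines and 0.19 for the difference of effects. In that fit 11 members were called in the hairpin lines, all among the 14. The share over all genes there is not given here.

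Some values changed sign, and not all of them were near 0 as reported. EIF2S1 had −0.46 (SE 0.25) for TIF1γ and EIF5A had −0.44 (SE 0.37) for sh-NC minus vector. For TIF1γ, AIMP2 was −0.10 with equal sums, −0.042 with the trend removed, −0.051 without vector replicate 3 and −0.025 without TIF1γ replicate 2 (highest 0.25 without TIF1γ replicate 3), and EIF2S1 was 0.065 with the trend removed. For sh-TAF15, EEF1E1 was −0.091 with equal sums and ran from −0.024 to 0.038 leaving out each library, lowest without sh-TAF15 replicate 2. AIMP2 was −0.062 and EEF1G −0.087 with the trend removed, and leaving out each library they ran from −0.038 to 0.28 and from −0.0047 to 0.26, lowest without sh-TAF15 replicate 3. For sh-NC minus vector, EEF1A1 was 0.0022 with equal sums, AIMP1 −0.053 with the trend removed and −0.16 to 0.46 leaving out each library, lowest without vector replicate 3, and EIF5A 0.10 with the trend removed. An alternative chosen after seeing the data, keeping genes at 0 beside 100 FPKM, left 14 members called in the hairpin lines. The share over all genes in it is not given here.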
